A study of Mus musculus with 6 samples.

Results

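Amino acid transporter genes were examined in the calvaria (skull roof) of newborn mice, with and without a conditional deletion of Ezh2. The genes are the 42 rows of 23358 in the deposited gene table whose symbols belong to the families Slc1a, Slc3a, Slc7a, Slc36a, Slc38a and Slc43a. They were taken by symbol alone, but earlier results of these data were known when the families were chosen. Total RNA was sequenced from calvaria of animals aged 2 to 3 days after a short collagenase and trypsin digestion that both groups received. There were 3 libraries labelled as the Ezh2 conditional knockout (Ezh2_cKO-Osx, here cKO 8, cKO 10 and cKO 37) and 3 labelled wild type (Ezh2_WT-Osx, here WT 14, WT 27 and WT 29). Ezh2 is the methyltransferase of the Polycomb complex PRC2, which places a repressive methyl mark on histone H3, and Osx (osterix, now Sp7) is a regulator that commits cells to the osteoblast lineage. Both group names carry Osx, and the labels state neither the deleted part of Ezh2 nor whether the wild-type mice carried the driver. Separate animals per library are not stated either, and p-values then measure only a spread between libraries that may be technical.

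Cells take up amino acids through families of membrane carriers that differ in substrate and in what drives transport. Slc1a5 and the Slc38 family bring in glutamine and other neutral amino acids, Slc7a1 and Slc7a2 bring in arginine and lysine, and the light chains of the Slc7 family reach the cell surface only when bound to a heavy chain, Slc3a2 (CD98) or Slc3a1. Osteoblasts have a high demand for glutamine, asparagine and proline because they secrete collagen, and uptake through Slc1a5 and Slc38a2 is known to be needed for it. Several of these genes, among them Slc7a11, Slc7a5, Slc7a1, Slc3a2, Slc1a4 and Slc38a2, are known targets of Atf4, the transcription factor that responds to amino acid shortage. On lysosomes, Slc38a9 senses arginine and passes the signal to the growth kinase complex mTORC1.

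The binding site of Atf4 with its C/EBP partners, the CARE motif (TGATGNAA, read on both strands), was looked for in the RefSeq promoter windows of build GRCm38.p6, which run from 250 bases before to 50 bases after a start. Windows were matched by symbol for 31 of the 42 genes, and the motif was in those of Slc7a11, Slc1a4 and Slc7a7 (3 of 31 genes, or 4 of their 42 windows, 9.52%). Of all 32851 windows, 3.97% held it. The first pair of stretches below shows the motif in capitals in Slc7a11 (chr3:50443614-50443713, minus strand) and around the start of Slc1a4 (chr11:20332699-20332728, minus strand). The next 4 are the 150 bases before the start of members that differed between the groups and had a window, namely Slc7a1 (chr5:148399905-148400054, minus strand), Slc3a2 (chr19:8713898-8714047, minus strand), Slc7a6 (chr8:106168704-106168853, plus strand) and Slc38a9 (chr13:112660616-112660765, plus strand). There the capitals mark a GC box (GGGCGG, either strand), which 35.7% of all windows held. The stretch of Slc7a6 has no GC box and so no capitals, but its window holds one from base 11 after the start. The CARE letters were not in the windows of these 4. The RefSeq start used for Slc3a2 lies inside its whole-gene interval (chr19:8706882-8723369), and no window covered the upstream end at 8723369.
Slc7a11: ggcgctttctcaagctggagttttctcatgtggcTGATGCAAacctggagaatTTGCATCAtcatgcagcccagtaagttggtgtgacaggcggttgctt
Slc1a4: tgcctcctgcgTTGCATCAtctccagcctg
Slc7a1: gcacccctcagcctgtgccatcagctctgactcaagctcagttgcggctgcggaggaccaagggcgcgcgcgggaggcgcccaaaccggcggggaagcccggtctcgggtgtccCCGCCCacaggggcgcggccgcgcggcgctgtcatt
Slc3a2: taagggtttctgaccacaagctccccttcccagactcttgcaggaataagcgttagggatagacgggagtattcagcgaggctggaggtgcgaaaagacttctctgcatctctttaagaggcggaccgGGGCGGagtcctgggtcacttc
Slc7a6: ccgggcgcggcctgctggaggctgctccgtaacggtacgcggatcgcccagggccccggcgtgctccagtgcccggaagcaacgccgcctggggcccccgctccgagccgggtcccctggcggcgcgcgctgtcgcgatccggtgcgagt
Slc38a9: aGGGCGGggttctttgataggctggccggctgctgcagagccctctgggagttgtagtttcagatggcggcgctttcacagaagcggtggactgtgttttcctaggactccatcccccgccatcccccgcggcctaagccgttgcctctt

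Gene counts summed to between 60449016 and 95439578 per library. Ezh2 itself was at 20.4 to 21.7 CPM (a gene's count scaled to a common library size with TMM factors) in WT and 19.2 to 20.6 in cKO (adjusted p = 0.507), and counts over the whole gene do not check a deletion of part of it, so every direction below rests on the labels. The 9 osteoblast markers summed to between 98600 and 180000 CPM in the 6 libraries, and Sp7 was the 1 of them that passed, lower in cKO. Most of that sum came from Col1a1 and Col1a2. Without passing, Col1a1 was lower in every cKO library (44380 to 67860 CPM, against 71850 to 99700 in WT). Ibsp was higher in every cKO library (1247 to 1432 CPM, against 910.4 to 1241 in WT) and did not pass either. The 11 neural and glial markers summed to between 25.6 and 38.7 CPM, with 2 of them at 0 in every library, and Tubb3 passed lower in cKO (-0.77, adjusted p = 0.0131). The 6 endothelial markers summed to between 478 and 598 CPM with overlapping groups, and Cldn5 passed lower (-0.36, 0.0132). The 8 macrophage and osteoclast markers were lower in cKO (summed CPM 1750 to 1980) than in WT (2130 to 2820), and Csf1r and Acp5 were the 2 that passed. Cartilage markers were lowest in cKO 37 (790 CPM) and WT 14 (2230 CPM), against 4990 to 8300 in the other 4 libraries. The part of these marker differences in the results below was not tested, and in bulk tissue fewer cells of a type cannot be told apart from less RNA per cell.

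On the deposited RPKM scale, which divides counts by gene length and library total and so allows levels of different genes to be compared, 9 of the 42 transporters had a median over the libraries of at least 10, 15 lay between 1 and 10, and 18 were under 1. The order was led by Slc38a10, a broadly expressed and little characterised member of the Slc38 family, at 39.5 to 49.4 RPKM. Slc38a2, the insulin- and starvation-responsive carrier of small neutral amino acids, followed at 33.5 to 40.6 and was the higher of the pair in cKO 37, and the heavy chain Slc3a2 at 20.1 to 27.1. These 3 genes made up 40.9% to 43.4% of the summed RPKM of all members in each library. Slc1a5 was at 12.2 to 17.8 RPKM, Slc38a4, an imprinted carrier of neutral and cationic amino acids, at 12.9 to 17.1, and the proton-coupled glycine and proline carrier Slc36a2 at 10.1 to 17.3. The ranges of Slc1a5, Slc38a4 and Slc36a2 overlapped, so their order is not resolved, nor is that of Slc7a5 (8.03 to 13.5), Slc43a3 (9.16 to 12.5) and Slc36a4 (9.21 to 11.4). Slc7a2, Slc1a4, Slc7a1, Slc38a6 and Slc36a1 also had overlapping ranges, with medians of 5.99 to 6.95.

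**Figure D1:**
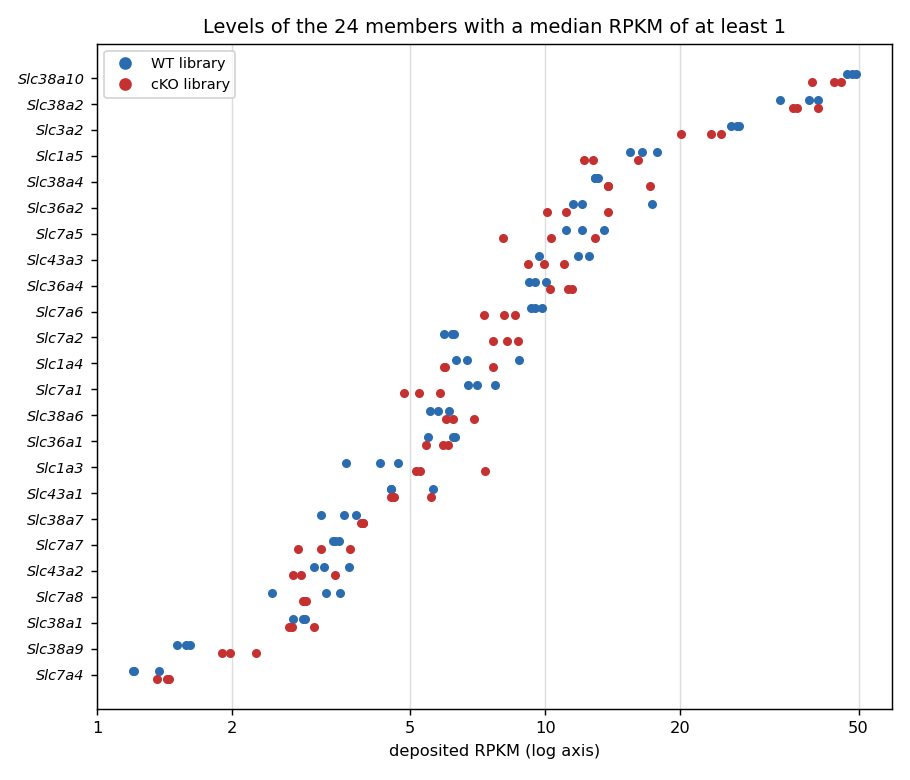
Deposited RPKM (log axis) of the 24 amino acid transporter genes with a median of at least 1, one point per library (blue WT, red cKO), ordered by median. Slc38a10, Slc38a2 and Slc3a2 lead, and in most rows the WT and cKO points are mixed.

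At the other end, the glial glutamate transporter Slc1a2 was at 0.0495 to 0.101 RPKM, and the cystine and glutamate exchanger Slc7a11 at 0.0430 to 0.0846. Slc7a9, Slc7a12, Slc7a13, Slc7a15, Slc36a3, Slc38a5 and Slc38a8 were too scarce to test, with no count above 34 in any library, and Slc7a12 was at 0 in all 6. The highest of these counts was in Slc38a5 in WT 29, where the other libraries had 4 to 18. The summed RPKM of all members was 263 ± 8.69 in WT and 250 ± 10.4 in cKO (mean ± SD, n = 3 per group), and the ranges of 253 to 268 and 238 to 258 overlapped. These sums do not carry the TMM factors used in the tests. The overlap therefore holds for the RPKM scale only, and a difference in the total was not tested.

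The comparison of cKO with WT asks which of these genes differ between the libraries labelled as the Ezh2 conditional knockout and those labelled wild type. Of the 35 genes abundant enough to test, 2 rose in cKO (Slc7a2 and Slc38a9), 4 fell (Slc7a1, Slc7a6, Slc3a2 and Slc1a5) and 29 did not pass the threshold of an adjusted p of 0.05 (edgeR quasi-likelihood test with Benjamini-Hochberg adjustment over 16089 genes). That is 17.1% of the tested members, beside 12.4% of all tested genes (5.96% higher and 6.45% lower). Among genes with a mean of at least 10 CPM, where the 6 called members lie, the shares were 26.1% of 23 members and 17.0% of 9351 genes. The groups did not overlap for 10 members (28.6%, against 34.6% of all tested genes), 6 of them higher and 4 lower in cKO. The median log2 fold change (here always cKO relative to WT) was -0.003 over the 35 members and 0.007 over all tested genes. Over all tested members, the share of calls and the centre thus lay near the background. Among those with a mean of at least 10 CPM the median was -0.08, against -0.028 over all such genes. At that level 16 of 23 members had a negative estimate, beside 5260 of 9351 genes. Across all genes the calls divided into 959 higher and 1038 lower, and into 1191 higher and 764 lower with upper-quartile scaling, under which 2 members rose and 3 fell.

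**Figure D2:**
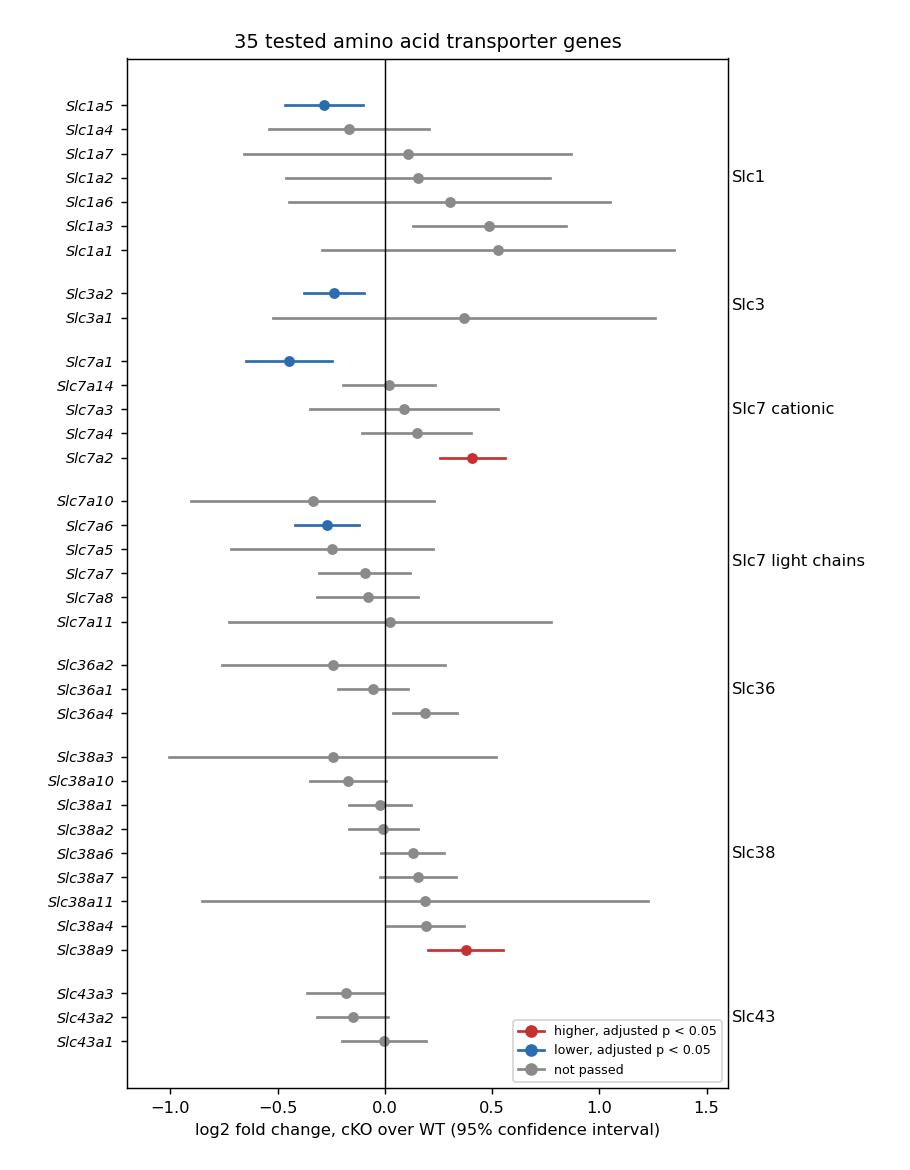
Log2 fold change (cKO over WT) with its 95% confidence interval for the 35 tested members, grouped by family, with genes past the adjusted p threshold in red (higher) or blue (lower). The 6 coloured genes lie between -0.45 and 0.41, and the widest intervals belong to scarce genes such as Slc1a1 and Slc38a11.

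The arginine and lysine carriers of the Slc7 family moved in opposite directions. Slc7a1 (whole gene at chromosome 5, 148327410 to 148399904, build mm10 as for the genes below), the widely expressed arginine carrier CAT1, had CPM values of 69.8 (WT 14), 61.9 (WT 27) and 76.2 (WT 29), against 52.9 (cKO 8), 54.4 (cKO 10) and 45.4 (cKO 37). All 3 cKO values lay below all 3 WT values, with cKO 37 the lowest. The gene fell by 0.45 ± 0.09 on the log2 scale (standard error, 95% confidence interval -0.65 to -0.25, adjusted p = 0.0129), from 69.3 ± 7.19 to 50.9 ± 4.82 CPM (mean ± SD, n = 3 per group). Slc7a2 (chromosome 8, 40862367 to 40922070), which encodes CAT2 and is known to supply arginine to nitric oxide synthase and arginase, was at 68.0, 62.2 and 64.3 CPM in WT and 91.0, 88.6 and 78.5 in cKO, in the same library order. Here every cKO value lay above every WT value. It rose 1.33-fold (log2 0.41 ± 0.07, confidence interval 0.26 to 0.56, adjusted p = 0.00649), the smallest adjusted p among the members. The call of Slc7a2 held without any single library and under each of the 9 other settings (adjusted p at most 0.038), whereas that of Slc7a1 was lost without WT 29 (0.0516).

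Because both genes were measured in the same libraries, their ratio was also read per library, a description chosen after the values were seen. On the RPKM scale Slc7a2 over Slc7a1 was 0.889, 0.919 and 0.77 in the WT libraries and 1.57, 1.49 and 1.58 in the cKO libraries, in the same order. Slc7a1 was thus the more abundant of the pair in each WT library and Slc7a2 in each cKO library. Their summed RPKM was 12.9 to 13.7 in WT and 12.5 to 14.5 in cKO, ranges that overlap. The other tested members of this branch did not pass. These were the neuronal arginine carrier Slc7a3 (log2 0.09 ± 0.20, adjusted p = 0.805) and the related genes Slc7a4 (0.15 ± 0.12, 0.433) and Slc7a14 (0.02 ± 0.10, 0.919).

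**Figure D3:**
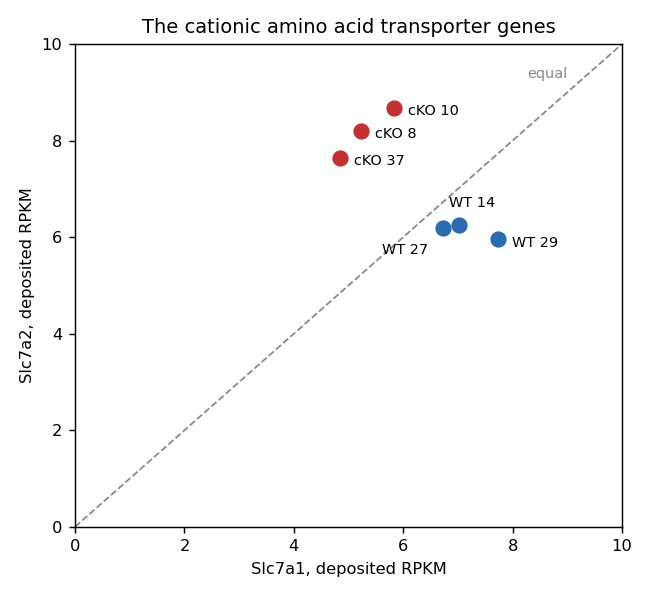
Deposited RPKM of Slc7a2 against Slc7a1 in each library (blue WT, red cKO), with the dashed line marking equal levels. The 3 WT libraries lie below the line and the 3 cKO libraries above it.

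The heavy chain and one of its light chains were lower in cKO. Slc3a2 (chromosome 19, 8706882 to 8723369) stood at 109, 103 and 105 CPM in the WT libraries, in the order used above, and at 84.0, 89.9 and 95.3 in the cKO libraries. The groups did not overlap, and cKO 37 came nearest to WT. The gene fell by 0.24 ± 0.06 on the log2 scale (confidence interval -0.38 to -0.10, adjusted p = 0.0338). Slc7a6 (chromosome 8, 106168875 to 106198704), a light chain that exchanges cationic for neutral amino acids, was at 50.7, 44.5 and 48.5 CPM in WT and 38.4, 39.2 and 41.7 in cKO. Again no cKO library reached the lowest WT library. It fell by 0.27 ± 0.07 (confidence interval -0.42 to -0.12, adjusted p = 0.0271). Both calls were sensitive to single libraries. The Slc3a2 call held without cKO 37 but was lost without each other library (0.0565 to 0.145) and with an offset for gene length and GC content (0.0799). Omission of WT 14, WT 29, cKO 8 or cKO 10 ended the Slc7a6 call (0.0614 to 0.106).

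The remaining light chains did not pass. Slc7a5, which with Slc3a2 forms the main importer of leucine and other large neutral amino acids (LAT1), was at 58.6, 50.1 and 65.1 CPM in WT and 51.1, 58.8 and 36.9 in cKO. The groups overlapped, cKO 8 and cKO 10 lay within the WT range and cKO 37 stood well below the other 5 libraries. Its log2 fold change was -0.25 ± 0.19, with a confidence interval of -0.72 to 0.22 (adjusted p = 0.458), so neither a fall of the size seen in Slc3a2 nor the absence of one can be read from these libraries. Slc7a7 and Slc7a8, which carry cationic and neutral amino acids respectively, were at -0.09 ± 0.10 and -0.08 ± 0.11 (adjusted p = 0.559 and 0.662). Slc7a10, a carrier of small neutral amino acids and a marker of white fat, was at -0.34 ± 0.26 and Slc7a11 at 0.02 ± 0.34 (0.425 and 0.972), both at under 3 CPM in every library. Slc7a7 shares 228 bases with Oxa1l and Slc7a10 shares 178 with Lrp3. As the use of strand is not given, reads of these pairs may not be fully separated. Slc3a1, the heavy chain of kidney and gut, overlaps Prepl by 765 bases and was at 0.200 to 0.568 CPM. Per length, Slc3a2 amounted to 0.855 to 0.964 of the summed RPKM of its 6 tested light chains in WT and 0.837 to 1.03 in cKO, so the balance of heavy to light chains overlapped between the groups.

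In the Slc1 family, 1 of 7 tested members fell and none rose. Slc1a5 (chromosome 7, 16781346 to 16798274), the glutamine exchanger ASCT2, had 59.0, 62.9 and 62.2 CPM in the WT libraries and 47.6, 57.5 and 46.0 CPM in the cKO libraries. On this TMM-scaled CPM the groups were separate, but cKO 10 lay only just under WT 14. In the deposited RPKM, which does not carry the TMM factors, cKO 10 (16.06) lay above WT 14 (15.46), so the groups overlapped. The gene fell by 0.28 ± 0.08 on the log2 scale (confidence interval -0.47 to -0.10, adjusted p = 0.0466). This is the least secure of the 6 calls. It was kept when cKO 10 was omitted and lost when any other library was (0.0772 to 0.17), and it was also lost with upper-quartile scaling (0.0638), with a filter at a mean CPM of 1 (0.0502) and with the length and GC offset (0.0901). Slc1a4, the closest relative of Slc1a5 and a carrier of alanine, serine and cysteine, was at 47.4, 33.6 and 34.1 CPM in WT and 33.2, 38.9 and 30.5 in cKO. WT 14 stood above the other 5 libraries, and the log2 fold change of -0.17 ± 0.16 (adjusted p = 0.537) became 0.01 without it.

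**Figure D4:**
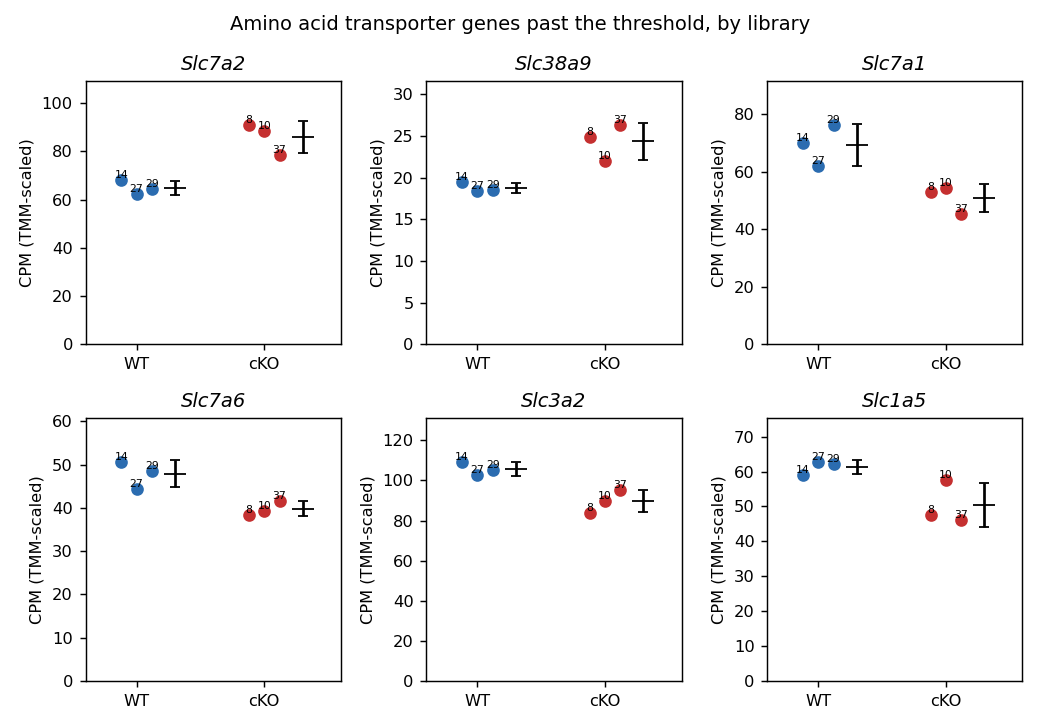
TMM-scaled CPM of the 6 members past the threshold in each library (numbered points, WT in blue and cKO in red) and the mean with SD of each group (n = 3, axes from 0). The groups are separate in each panel, and the gap is narrowest in Slc1a5, between cKO 10 and WT 14.

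Slc1a3, the glutamate and aspartate transporter of glia that is also present in bone cells, had the second largest positive estimate of the tested members, behind the scarce Slc1a1, but did not pass. Its values were 20.9, 23.1 and 27.1 CPM in WT and 31.2, 28.1 and 40.4 in cKO. The groups did not overlap, and cKO 37 was the highest by a wide margin. The log2 fold change was 0.49 ± 0.15 (confidence interval 0.13 to 0.84, adjusted p = 0.081). It passed with DESeq2 (adjusted p = 0.00437) and without cKO 10 (0.0436), and the estimate was 0.32 without cKO 37. The other glutamate transporters, Slc1a1, Slc1a2, Slc1a6 and Slc1a7, were at 0.258 to 2.44 CPM and did not pass (adjusted p = 0.382 to 0.869).

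Of 9 tested Slc38 genes, 1 rose. Slc38a9 (chromosome 13, 112660766 to 112738752), the lysosomal arginine sensor, read 19.5, 18.4 and 18.5 CPM in the WT libraries and 24.9, 22.0 and 26.3 CPM in the cKO libraries. The WT libraries lay close together, and each cKO library was above them. The gene rose 1.3-fold (log2 0.38 ± 0.08, confidence interval 0.20 to 0.55, adjusted p = 0.0136). The call was lost without WT 29 (0.0587) or cKO 8 (0.0639) and held under the 9 other settings. Slc38a6, a less studied member of the family, and Slc38a7, a lysosomal glutamine exporter, also had all cKO libraries above all WT libraries, at 24.03 to 26.6 against 22.4 to 23.6 CPM and at 16.5 to 18.1 against 14.2 to 16.1 CPM. Neither passed (log2 0.13 ± 0.07 and 0.15 ± 0.08, adjusted p = 0.224 and 0.234).

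Slc38a2, the most abundant plasma membrane glutamine and proline carrier of the set, was nearly level. It was at 214, 241 and 246 CPM in WT and 234, 219 and 246 in cKO, and the groups overlapped fully. The log2 fold change of -0.01 ± 0.07 has a confidence interval of -0.17 to 0.15 (adjusted p = 0.967), which leaves out a change of the size seen in Slc7a1 or Slc7a2. Slc38a1, a related carrier 44478 bases away on chromosome 15, was at -0.02 ± 0.07 (confidence interval -0.17 to 0.12, adjusted p = 0.852). Slc38a4 lies 295124 bases beyond Slc38a2 in the same cluster and was at 0.19 ± 0.08 (0.147), with WT at 64.9 to 71.2 CPM and cKO at 70.4 to 87.9. Slc38a10 was at 353, 336 and 368 CPM in WT and 337, 322 and 279 in cKO, with cKO 37 the lowest and cKO 8 within the WT range (-0.17 ± 0.08, adjusted p = 0.191). The liver-type carrier Slc38a3 and the scarce Slc38a11 did not pass either (0.674 and 0.833).

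No member of the Slc36 or Slc43 families passed with edgeR, and in each family 1 gene had an unadjusted p under 0.05. Slc36a4, a high-affinity proline and tryptophan carrier, was at 26.9, 23.5 and 24.5 CPM in WT and 28.0, 28.3 and 28.97 in cKO, without overlap (log2 0.19 ± 0.07, adjusted p = 0.0954). Slc36a1, the lysosomal proton-coupled carrier, was at 37.4 to 45.1 CPM in all libraries (-0.05 ± 0.07, 0.673). Its neighbour Slc36a2 ranged from 31.9 in cKO 10 to 57.6 in WT 29 (-0.24 ± 0.21, 0.511). In the Slc43 family, the leucine carriers Slc43a1 and Slc43a2 were at -0.003 ± 0.09 and -0.15 ± 0.08 (0.986 and 0.217). Slc43a3, which is known to carry purine nucleobases rather than amino acids, was at 34.9, 41.6 and 42.2 CPM in WT and 33.6, 37.2 and 33.8 in cKO (-0.18 ± 0.08, 0.162). DESeq2 called none of these 6 genes either.

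Amino acid transporters of other families were read from a list of 29 genes. This list and those below were drawn up with earlier results of these data known, so their shares of calls are descriptions only. Of 24 tested, 4 rose, 3 fell and 17 did not pass. That is 29.2% called, beside 12.4% of all tested genes and 17.0% of those with a mean of at least 10 CPM, a level that 13 of the 24 reached. The glycine transporter Slc6a9 rose from 13.3 ± 0.332 to 17.6 ± 0.763 CPM (log2 0.40 ± 0.07, adjusted p = 0.00818), and the neutral amino acid carrier Slc6a15 from 1.68 ± 0.316 to 3.00 ± 0.272 (0.84 ± 0.18, 0.0153). Slc17a7, a vesicular glutamate transporter known from neurons, rose by 1.40 ± 0.35 (0.0261) from a level of only 0.217 to 0.328 CPM in WT, while the summed neural and glial markers overlapped between the groups. Slc25a38, the mitochondrial glycine importer needed for haem synthesis, fell by 0.41 ± 0.10 (0.0216). Leaving out 1 library could end the calls of Slc6a15, Slc17a7 and Slc25a38 (adjusted p up to 0.0712, 0.102 and 0.0698) but not that of Slc6a9.

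Carriers known on lysosomal membranes, grouped after their values were seen, moved both ways. Besides Slc38a9, Pqlc2, the exporter of cationic amino acids now named Slc66a1, rose from 8.37 ± 0.846 to 11.1 ± 0.234 CPM (log2 0.40 ± 0.10, adjusted p = 0.0257). Omitting WT 14, WT 29, cKO 8 or cKO 10 ended that call (0.0724 to 0.0833). Slc15a4, the histidine and peptide carrier of immune cell lysosomes, fell from 20.8 ± 1.66 to 14.7 ± 0.783 CPM (-0.50 ± 0.08, 0.00545), and it held without any single library. The cysteine importer Mfsd12 fell by 0.40 ± 0.11 (0.036), a call lost when WT 14, WT 27, cKO 8 or cKO 37 was omitted, and the cystine exporter Ctns was at 0.22 ± 0.07 (0.0706). Slc15a4 is known from macrophages and other immune cells, the summed macrophage and osteoclast markers were lower in the same libraries, and their part in its fall was not tested.

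In a list of the amino acid response, 2 of 27 tested genes rose, 7 fell and 18 did not pass (33.3% called, beside 12.4% of all tested genes and 17.0% of those with a mean of at least 10 CPM), 20 had a negative estimate, and the median log2 fold change was -0.26, against 0.007 over all tested genes. Atf4 itself was at 216, 217 and 226 CPM in WT and 178, 178 and 170 in cKO, without overlap. It fell by 0.33 ± 0.06 (log2, adjusted p = 0.00755), a call that held without any single library. The folate enzyme Mthfd2 fell by 0.63 ± 0.08 (0.00166), Aldh18a1, the first enzyme of proline synthesis, by 0.39 ± 0.07 (0.00776), and the alanine transaminase Gpt2 by 0.48 ± 0.12 (0.025). Cebpg, a dimer partner of Atf4, rose by 0.47 ± 0.07 (0.00485) and Eif2ak4, the kinase GCN2 that senses uncharged tRNA, by 0.25 ± 0.06 (0.0272). The calls of Gpt2 and Eif2ak4 were each lost without any library but cKO 37 (0.0535 to 0.105 and 0.0529 to 0.0896), and 3 members of the list fell without WT 29 or without cKO 10.

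Set beside Atf4, the transporter genes named at the outset as its known targets gave mixed values. Slc7a1 and Slc3a2 fell, Slc7a5 and Slc1a4 were lower in estimate without passing, Slc38a2 was level and Slc7a11 was scarce. The 3 genes whose windows held the CARE letters, Slc7a11, Slc1a4 and Slc7a7, did not pass. The windows of the 4 called genes that had one did not hold the letters. That of Slc3a2 did not cover the upstream end of its whole-gene interval. A match or its absence in these windows is a description of the letters only, and elements outside the window were not looked at.

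The mTORC1 branch that reads amino acid supply at the lysosome, in which Slc38a9 acts, had 36 tested genes besides Slc38a9, of which 6 rose, 3 fell and 27 did not pass (25.0% called, beside 12.4% of all tested genes and 17.0% of those with a mean of at least 10 CPM, and median 0.035). Tsc1, a subunit of the complex that switches Rheb off, rose from 46.6 ± 1.84 to 66.9 ± 3.77 CPM (log2 0.52 ± 0.06, adjusted p = 0.00164), Flcn, which acts on the Rag GTPases, by 0.49 ± 0.07 (0.00244) and the sestrin gene Sesn1 by 0.49 ± 0.08 (0.00636). Mios, of the GATOR complex that relays amino acid signals, rose by 0.33 ± 0.06 (0.0107), which was lost without cKO 8 (0.0558). The Rag GTPase gene Rraga fell by 0.24 ± 0.06 (0.0211) and Sec13, shared by that complex and the secretory coat, by 0.22 ± 0.06 (0.0295). No member of this list passed lower without WT 14, WT 29, cKO 8 or cKO 10, while Tsc1, Flcn and Sesn1 held without any single library.

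Among 32 enzymes that make or break down amino acids, 1 rose and 4 fell (median -0.09). The 15.6% called is near the 12.4% of all tested genes. Bcat1, the cytosolic transaminase of leucine, isoleucine and valine, fell from 45.2 ± 5.76 to 31.2 ± 2.71 CPM (log2 -0.53 ± 0.10, adjusted p = 0.00953). The call held without any single library but not without WT 14 and cKO 37 together (0.0585). Mat2a, which makes S-adenosylmethionine, fell by 0.31 ± 0.07 (0.0152), the proline synthesis enzyme Pycrl by 0.35 ± 0.08 (0.0237) and Aldh4a1, of proline breakdown, by 0.53 ± 0.14 (0.041). Bckdha, a subunit of the branched-chain keto acid dehydrogenase, rose by 0.28 ± 0.07 (0.0288). Each of these last 4 calls was lost without at least 3 of the single libraries, with adjusted p up to 0.0705, 0.0841, 0.141 and 0.11. That of Pycrl was also lost with the length and GC offset (0.0546). Gcsh, of the glycine cleavage system, did not pass (-0.20 ± 0.07, 0.0827).

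**Figure D5:**
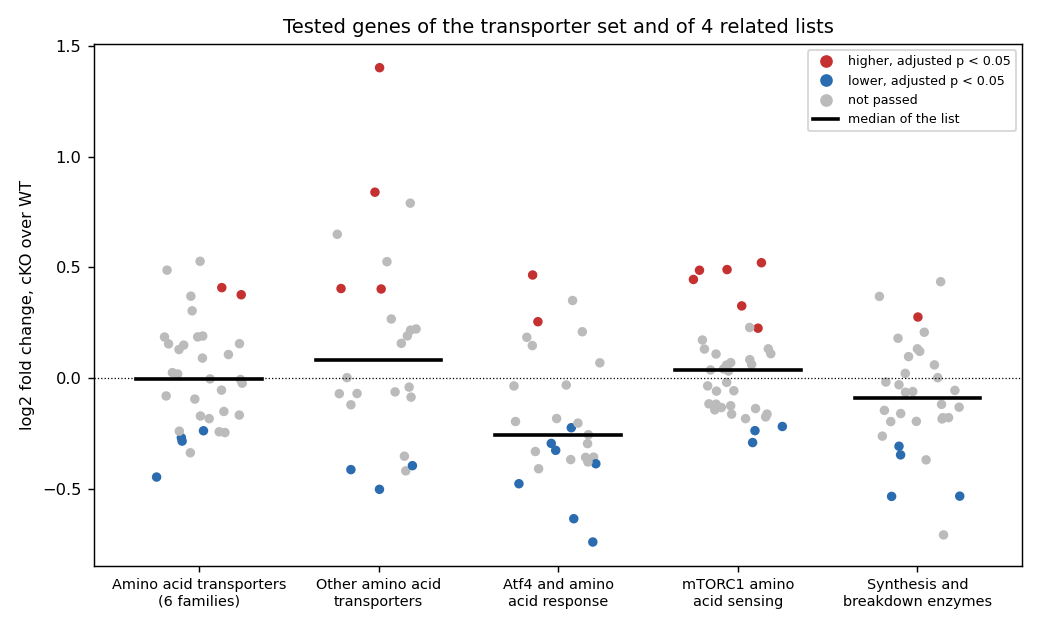
Log2 fold change (cKO over WT) of each tested gene in the transporter set and in 4 related lists (red higher, blue lower at an adjusted p under 0.05, grey not passed), with the list median as a black bar. The transporter median is -0.003 and that of the Atf4 and amino acid response genes lowest, at -0.26.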

How the data were processed

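The submitters' processing notes name bcl2fastq, TopHat2 2.0.6, HTSeq and the build mm10; the annotation and any use of strand are not stated. The deposited count values are read counts per gene, all even, so a fit on halved values was also made. The RPKM values deposited by the authors equal the counts over the table's gene length and a library total, and serve only for levels. The main analysis used edgeR 4.0.16 (R 4.3.3): filterByExpr (minimum count 10) kept 16089 of 23358 genes, TMM factors were 0.9519 to 1.072, and a robust quasi-likelihood F test with Benjamini-Hochberg adjustment compared 3 cKO with 3 WT libraries (biological coefficient of variation 11.5%). Members and lists were chosen with earlier results of these data known. The text names every member, and of each other list the 6 genes with the smallest p, with Mfsd12, Ctns, Sp7, Col1a1, Col1a2, Ibsp, Tubb3, Cldn5, Csf1r and Acp5 added after their values were seen. Alternatives were other scalings (RLE, upper quartile) and filters, DESeq2 1.42.0, voom in limma 3.58.1, a gene length offset, omission of each library and an adjusted p of 0.1; a length and GC offset and omission of WT 14 with cKO 37 were added after seeing the data. The steps were tested on simulated data.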

Additional observations from a re-analysis of the deposited data

How the results depend on the processing

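The 6 called members kept their direction under every alternative run. Leaving out 1 library gave 1 to 3 members higher and 0 to 3 lower, with no member lower without WT 29. Over all genes it gave 291 to 932 higher and 295 to 1053 lower. An adjusted p threshold of 0.1 gave 4 members higher, and 1593 higher and 1684 lower over all genes. With the length and GC offset 2 members fell, and with the length offset alone 5 mTORC1 genes fell. Without 1 library, the response list had 1 to 2 higher and 3 to 9 lower, the mTORC1 list 3 to 7 and 0 to 4, the enzymes 0 to 1 and 1 to 4, and the other transporters 1 to 4 and 1 to 3. Without both WT 14 and cKO 37, the libraries lowest in cartilage markers, 2 members rose and 3 fell (Slc1a5 lost, edgeR adjusted p = 0.1), 10 response genes fell, 1 other transporter fell, and 0 enzymes rose and 2 fell; Bcat1, Aldh4a1, Bckdha, Mios, Pqlc2 and Slc25a38 were lost there (0.0505 to 0.0995). Sign changes were limited to genes that did not pass. The log2 fold change of Slc1a4 was 0.01 without WT 14, -0.28 to 0.01 without 1 library, and 0.09 without WT 14 and cKO 37. Slc7a11 was -0.06 with limma voom, -0.02 and -0.10 with the length and the length and GC offsets, and -0.39 to 0.21 without 1 library. Slc36a1 was -0.11 to 0.0039 without 1 library. Slc38a1 was 0.0045 with upper-quartile factors, 0.05 without both libraries and -0.07 to 0.01 without 1. Slc38a2 was 0.02 with upper-quartile factors, 0.0022 with the mean CPM filter, -0.11 without both libraries and -0.07 to 0.03 without 1. The cause of these shifts was not tested. No paired analysis was possible because the groups share no replicate number. At these depths a count of 0 in a library allows up to 0.0314 to 0.0496 CPM, for counting error only and if each count is a separate event. As all deposited counts are even, the limit may be higher.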
